A study of Homo sapiens with 5 samples.

Results

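The genes described here are 9 genes of the MHC class I pathway, which shows peptides from inside a cell on its surface. They are HLA-B, HLA-C, HLA-E, B2M, TAP1, TAP2, TAPBP, CALR and PDIA3, chosen by symbol. All 9 were found among the 27189 genes listed for every library, and all 9 were among the 21163 genes that reached 1 TPM (a level corrected for transcript length and for the library total) in 1 library or more. A class I molecule is a heavy chain (HLA-B, HLA-C and HLA-E here) bound to beta-2 microglobulin, the product of B2M. Peptides made by the proteasome enter the endoplasmic reticulum through the transporter formed by TAP1 and TAP2, tapasin (TAPBP) holds the empty heavy chain at that transporter, and calreticulin (CALR) and the oxidoreductase ERp57 (PDIA3) complete the peptide loading complex. Interferons raise the classical members of this pathway through interferon regulatory factors (IRF), with help from NF-kB and the activator NLRC5, while calreticulin is an abundant folding chaperone that also answers to stress in the endoplasmic reticulum.

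RNA was sequenced from HT1080, a human fibrosarcoma line, held in a type I collagen gel at 2 mg per ml for 24 h. Low density cells (10 cells per cubic mm) were left without cytokine (LD), or given recombinant IL-6 (IL-6), recombinant IL-8 (IL-8) or both at a ratio of 5 to 2 (RM, chosen by the study to match what high density cells secrete). High density cells (50 cells per cubic mm) received no cytokine (HD). Each condition is 1 library, so no difference below has a replicate check and no test of one condition against another was made. Intervals are exact 95% intervals and cover counting error only, as if reads were independent. Amplified reads are not independent molecules, so the intervals are narrower than the full error.

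The libraries held 7118545 reads in LD, 5096134 with IL-6, 5491616 with IL-8, 6838104 in RM and 926376 in HD. Ribosomal RNA5-8S5 took between 76.9% and 79.6% of the low density reads and 51.5% of those of HD. Read values are therefore given as CPM, the reads of a gene per 1000000 reads outside RNA5-8S5, and a floor of 3 reads, a one-sided limit for a count of 0, stands at 1.82 CPM in LD, 2.72 with IL-6, 2.68 with IL-8, 2.09 in RM and 6.67 in HD. Exact intervals end somewhat higher, at 8.20 CPM for a count of 0 in HD. HD had the fewest reads and the most genes with a read, 20113 against 13469 to 15080 in the other libraries. The mesenchymal markers VIM, FN1, CD44, LGALS1, MMP14, TIMP1, CDH2 and S100A4, which fit a fibrosarcoma line, summed to between 6592 and 9971 CPM at low density and to 974 in HD. Of 12 leukocyte markers, 8 or 9 were at 0 in each low density library and 2 in HD. CD68, a lysosomal gene also read in fibroblast-like cells, made up nearly all of that list's reads at low density. The whole list summed to between 249 and 283 CPM at low density and to 256 (211 to 307) in HD, so its sum did not set HD apart. CD68 itself was at 71.2 CPM in HD against 246 in LD, 3.45-fold (2.40 to 5.11) lower. Without CD68, left out after its values were seen, the list summed to between 2.09 and 5.35 CPM at low density and to 185 (147 to 229) in HD. PTPRC, the pan-leukocyte marker CD45, had 36 reads in HD and 0 to 2 elsewhere. HD thus differed in the mesenchymal list and in the leukocyte markers other than CD68, but many other genes moved the same way. By 1 log2 unit in log2(TPM + 1), 9 of 11 compared leukocyte markers (81.8%) were above LD in HD, beside 61.9% of all compared genes. The 8 mesenchymal markers were all below LD, beside 52% of genes with at least 100 reads over the 2 libraries. A difference in cell types was not tested.

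Promoter sequence was not used to choose these genes, and the stretches that hold motifs of interferon, NF-kB, STAT and stress signalling are printed here because cytokines were the treatment. RefSeq promoter sequences on GRCh38.p14, running from 250 bases before to 50 after each transcript start, were found for 7 of the 9 genes in 8 windows. HLA-E and PDIA3 had no entry. Motifs were searched on both strands, and capitals mark the matched letters, with overlapping matches run together. The IRF core AANNGAAA was found in all 7 genes and in 22.8% of 35116 promoters. Its letters were settled after a narrower form had been seen to miss B2M and TAPBP, so its presence in all 7 is a description. The NF-kB forms GGGATTCCC and GGACTTTCC were found in 0.384% and 0.370% of promoters, the paired STAT half-sites TTCNNNGAA in 7.66%, and the endoplasmic reticulum stress element (CCAAT, then 9 bases of any kind, then CCACG) in 0.0769%.
HLA-B, chr6:31357312-31357370, minus strand, first NF-kB form then IRF core: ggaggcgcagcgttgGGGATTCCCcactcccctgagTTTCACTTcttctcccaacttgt
HLA-C, chr6:31272221-31272258, minus strand, IRF core: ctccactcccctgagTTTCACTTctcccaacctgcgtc
B2M, chr15:44711360-44711415, plus strand, 2 IRF cores then second NF-kB form: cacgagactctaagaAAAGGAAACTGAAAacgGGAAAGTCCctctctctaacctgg
TAP1, chr6:32853752-32853853, minus strand, 2 IRF cores then second NF-kB form: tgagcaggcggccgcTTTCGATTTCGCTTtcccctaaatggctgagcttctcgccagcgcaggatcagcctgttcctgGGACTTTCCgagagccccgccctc
TAP1 at its other start, chr6:32852927-32852965, minus strand, STAT half-sites: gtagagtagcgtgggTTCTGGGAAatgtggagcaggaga
TAP2, chr6:32838773-32838816, minus strand, 2 IRF cores: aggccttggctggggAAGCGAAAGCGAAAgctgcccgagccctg
TAPBP, chr6:33314079-33314111, minus strand, 2 IRF cores: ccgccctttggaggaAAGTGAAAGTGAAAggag
CALR, chr19:12938369-12938509, plus strand, stress element then 2 IRF cores: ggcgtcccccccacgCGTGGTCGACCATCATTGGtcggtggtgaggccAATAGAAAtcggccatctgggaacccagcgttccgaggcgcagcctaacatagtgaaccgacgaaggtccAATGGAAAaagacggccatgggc

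The HLA-B and HLA-C stretches share the same IRF letters at nearly the same distance from the start. B2M, TAP1, TAP2 and TAPBP each carry 2 cores whose ends overlap, in TAP2 at 62 to 49 and in TAPBP at 18 to 5 bases before the start. CALR is the only one of the 7 with the stress element. A match is a run of letters and not a measured site, and no binding was measured here.

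**Figure D1:**
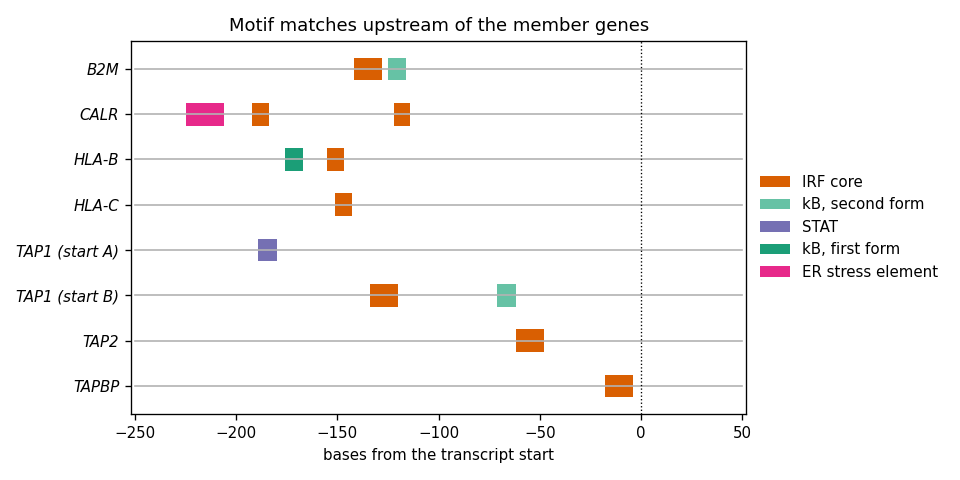
Motif matches in the 8 promoter windows of 7 genes. The horizontal axis is bases from the transcript start (dotted line at 0), each grey line is a window of 250 bases before and 50 after it, and each block is a match in the colour of its motif. Every match lies before the start, and TAP1 has 2 windows.

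By length-corrected level the 9 genes fell into an abundant and a scarce set. CALR was the highest of the 9 in every library, at 921 TPM in LD, 721 with IL-6, 731 with IL-8, 1218 in RM and 238 in HD, with 99.3% to 99.6% of all compared genes below it at low density and 98.0% in HD. B2M came next at low density, at 459 (LD), 246 (IL-6), 160 (IL-8) and 245 (RM) TPM. In HD it stood below CALR, at 18.4 TPM (5.02 to 47.2) on 4 reads. TAPBP was at 36.7 TPM (22.1 to 57.4) there, so the order of B2M and TAPBP in HD was not settled. PDIA3 followed at low density, between 27.1 and 88.7 TPM, and stood at 5.76 TPM in HD. TAPBP ranged from 9.29 to 47.9 TPM. The heavy chains HLA-B, HLA-C and HLA-E together reached 17.2 TPM in LD, 7.91 with IL-6 and 34.9 with IL-8. They reached 8.34 TPM in RM and 3.67 in HD. Each sum was below B2M in its library, though in HD this rests on 1 heavy chain read against 4 of B2M. TAP1 and TAP2 stayed at or under 1.99 TPM.

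**Figure D2:**
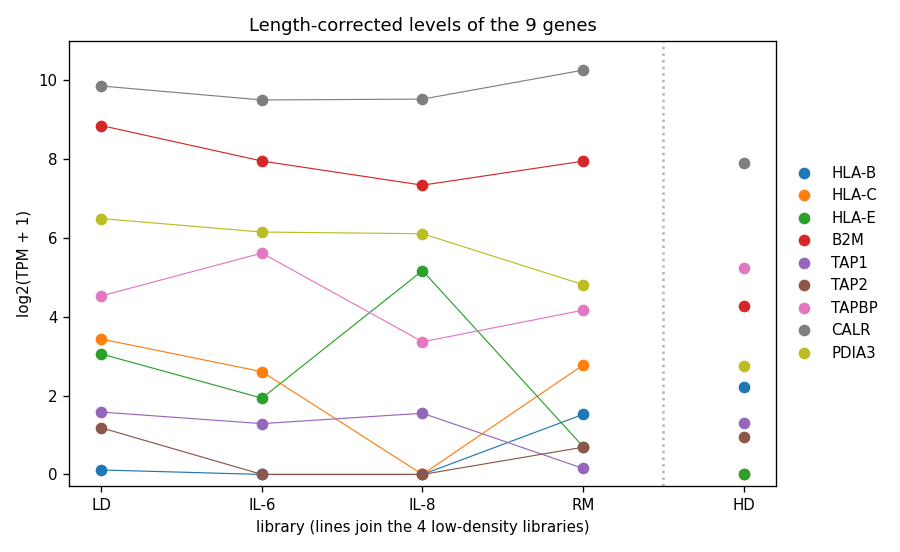
Level of each of the 9 genes in each library as log2(TPM + 1), with lines joining the 4 low density libraries for reading only. CALR is the highest point in every library, and HLA-E stands at 34.9 TPM in IL-8 and 0.63 TPM in RM.

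HLA-E was the best counted of the 3 heavy chains, and its IL-8 and RM libraries differed beyond counting error from LD in opposite directions. HLA-E is a low-variation class I molecule that shows leader peptides of other class I chains to natural killer cells. It had 27 reads in LD, 8 with IL-6, 70 with IL-8, 3 in RM and 0 in HD, or 16.4, 7.27, 62.5, 2.09 and 0 CPM. The IL-8 library lay above all others, with an interval apart from the next. It was 3.81-fold (2.41 to 6.18) above LD and 29.9-fold (9.81 to 148) above RM, which was 7.85-fold (2.41 to 40.4) below LD. The IL-6 library was 2.26-fold below LD with an interval of 0.998 to 5.75, which includes 1.

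HLA-C, a classical heavy chain read by T cells and natural killer cells, showed another order. Its reads were 20 in LD, 8 with IL-6, 0 with IL-8, 11 in RM and 0 in HD. IL-8, the library highest in HLA-E, held no HLA-C read, and the exact interval of its ratio to LD ends at 0.297. The RM and IL-6 libraries were 1.58-fold (0.724 to 3.66) and 1.67-fold (0.706 to 4.39) below LD, intervals that include 1. HLA-B, the third heavy chain, had 1, 0, 0, 1 and 1 reads, so neither its presence nor its order could be read at this depth. Its single reads were given 0.08 TPM in LD, 1.83 in RM and 3.43 in HD as deposited, and a TPM difference in HLA-B therefore rests on how 1 read was assigned. Heavy chains share sequence. Of the 50-base stretches in coding transcripts (the read length, GENCODE 29), 27.3% of those of HLA-B, 6.17% of HLA-C and 5.76% of HLA-E also occur in other genes, so their low counts are uncertain in a further way.

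B2M, the light chain shared by all class I molecules, was lower than in LD in all 4 other libraries. None of its 50-base stretches occurs in another gene. Its reads were 588 in LD, 216 with IL-6, 153 with IL-8, 304 in RM and 4 in HD, or 357, 196, 137, 212 and 8.90 CPM. The fold below LD was 1.82 (1.56 to 2.14) with IL-6, 2.62 (2.19 to 3.15) with IL-8, 1.69 (1.47 to 1.94) in RM and 40.2 (15.6 to 148) in HD. IL-8 had the lowest B2M CPM of the 4 low density libraries, the one with the highest HLA-E. The order of RM and IL-6 depended on the scaling. By CPM outside RNA5-8S5 their ratio was 1.08 (0.904 to 1.29), while RM was above IL-6 by 0.75 log2 units with median-ratio factors, by 0.63 with TMM (a trimmed-mean scaling) and by 1.63-fold (1.36 to 1.96) against the reads of the mesenchymal list. On that last footing IL-8 and IL-6 were close, at 19.3 and 19.7 B2M reads per 1000 mesenchymal reads. The distance of RM from LD also depended on the scaling. It was -0.17 log2 units with median-ratio factors and -0.32 with TMM, against -0.90 in log2(TPM + 1). CPM is a share of the reads of a library and not an amount per gel. With RNA from whole gels, a smaller fraction of cells holding a gene's RNA and less of it per cell cannot be told apart.

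The transporter genes were near the limit of detection. TAP1 had 8 reads in LD, 4 with IL-6, 5 with IL-8, 1 in RM and 1 in HD, and the intervals of all its ratios included 1. TAP2 had 7, 0, 0, 3 and 2 reads. The exact intervals of its ratios to LD, those of the counts of 0 included, also included 1. A difference in the transporter was not detectable at this depth. Reads of the pair may also be open to overlapping genes. Of the TAP1 stretches, 15.0% occur elsewhere, mostly in PSMB8-AS1. Of those of TAP2, 32.7% do, mostly in the readthrough gene AL669918.1.

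Tapasin was higher in IL-6 than in LD, and higher in HD than in LD except under quantile normalization. TAPBP had 28 reads in LD, 53 with IL-6, 9 with IL-8, 21 in RM and 19 in HD, or 17.0, 48.1, 8.03, 14.6 and 42.3 CPM. IL-6 was 2.83-fold (1.76 to 4.65) above LD and RM was 3.29-fold (1.95 to 5.74) below IL-6. RM and LD did not differ beyond counting error, at 1.16-fold (0.637 to 2.15), and IL-8 lay 2.12-fold below LD with an interval of 0.972 to 5.10. TAPBP was the only member above LD in HD with an interval clear of 1, at 2.48-fold (1.31 to 4.61), though quantile normalization gave a difference of -0.28 log2 units. Of all compared genes, 42.8% were clear above LD in HD. Of the TAPBP stretches, 5.82% occur elsewhere, spread over 761 other genes, so part of its count may depend on how reads were divided.

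**Figure D3:**
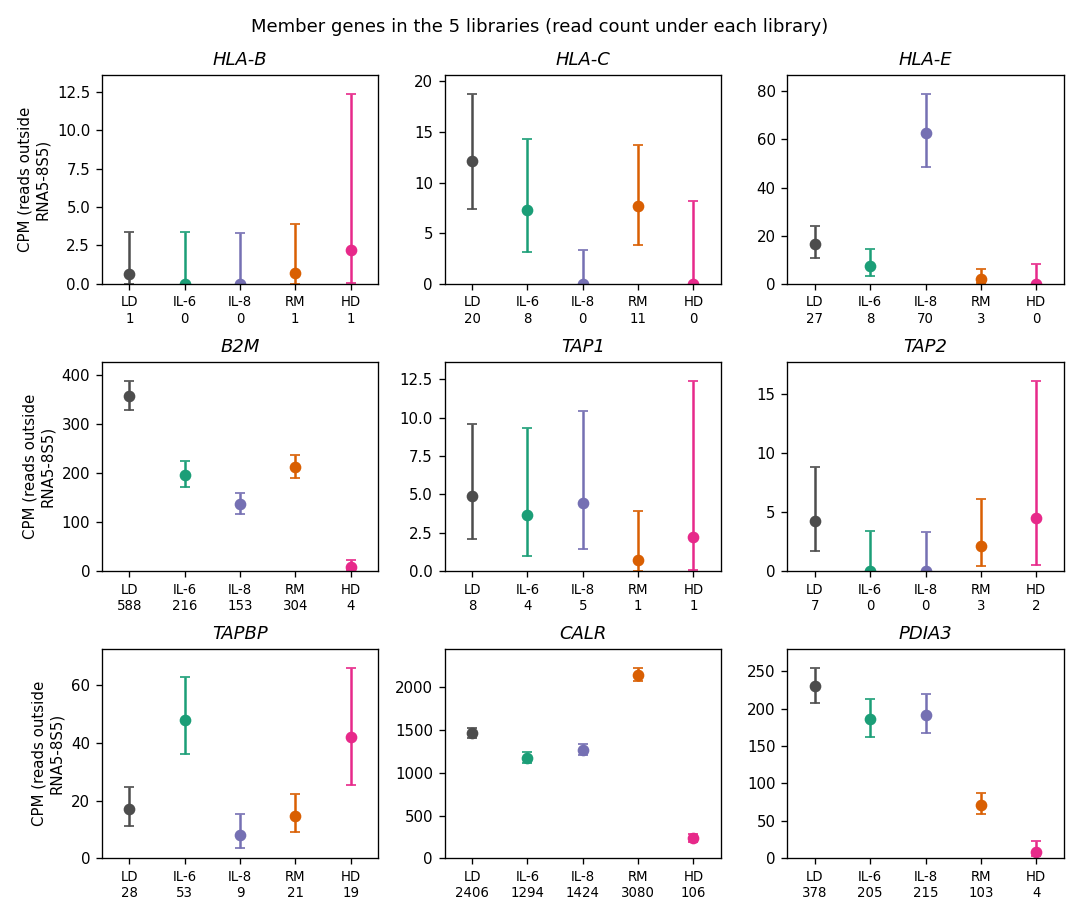
CPM over reads outside RNA5-8S5 for each of the 9 genes (1 panel each, its own linear axis from 0) in the 5 libraries, with exact 95% intervals and the read count printed under each library. HLA-E peaks in IL-8 with 70 reads, CALR in RM with 3080, and B2M and PDIA3 in LD with 588 and 378.

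The 2 chaperones of the loading complex lay on opposite sides of LD in RM. CALR had 2406 reads in LD, 1294 with IL-6, 1424 with IL-8, 3080 in RM and 106 in HD, or 1462, 1175, 1271, 2147 and 236 CPM. RM was above each other low density library, by 1.47-fold (1.39 to 1.55) over LD, 1.83-fold (1.71 to 1.95) over IL-6 and 1.69-fold (1.59 to 1.80) over IL-8, while each single cytokine lay slightly below LD (for IL-8 not under every scaling). PDIA3, which works with calreticulin on the same glycoproteins, had 378, 205, 215, 103 and 4 reads, or 230, 186, 192, 71.8 and 8.90 CPM. Here RM was 3.20-fold (2.57 to 4.02) below LD, 2.59-fold (2.04 to 3.32) below IL-6 and 2.67-fold (2.10 to 3.41) below IL-8. Of the PDIA3 stretches, 36.5% occur elsewhere, mainly in the pseudogene PDIA3P1 and the neighbour ELL3. Part of its count may therefore depend on how reads were divided, which was not tested. Of those of CALR, 9.26% occur elsewhere, all in AC092069.1.

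Ratios within a library need no scaling between libraries and show the same split. The TPM of CALR over that of PDIA3 was 10.4 (9.31 to 11.6) in LD, 10.3 (8.90 to 12.0) with IL-6, 10.8 (9.35 to 12.5) with IL-8, 44.9 (36.9 to 55.2) in RM and 41.3 (15.7 to 154) in HD. LD, IL-6 and IL-8 differed by less than counting error, and RM and HD stood above all 3. CALR over B2M was 2.01 (1.83 to 2.20), 2.93 (2.54 to 3.40), 4.56 (3.86 to 5.42), 4.97 (4.41 to 5.61) and 12.9 (4.89 to 48.2) in the same order. CALR made up 60.9% of the summed TPM of the 9 genes in LD, 80.3% in RM and 78.0% in HD, and B2M made up 30.4%, 16.2% and 6.05%.

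**Figure D4:**
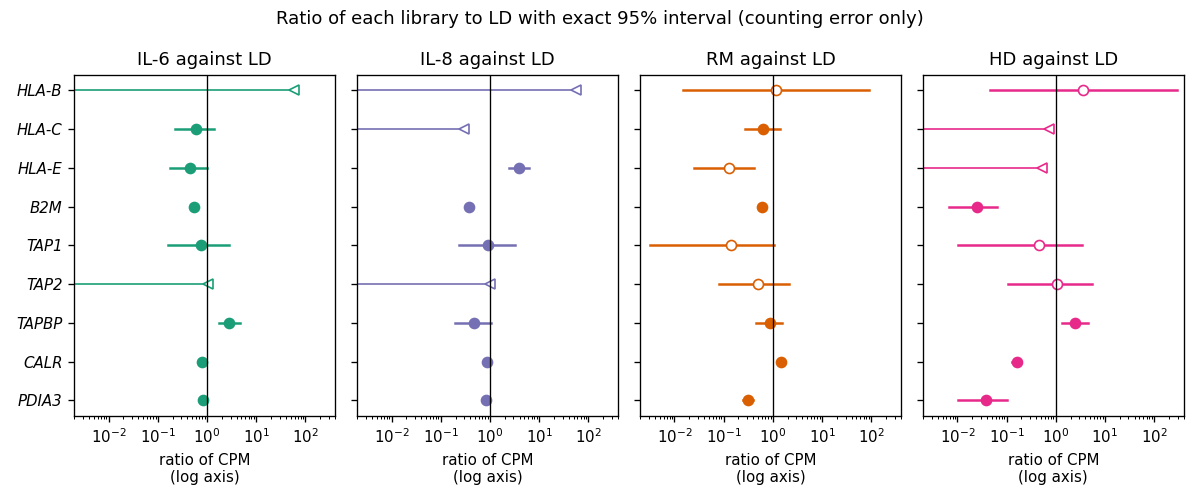
Ratio of CPM in each library to LD on a log axis, with exact 95% intervals. Filled points have over 3 reads in both libraries, open points have not, and an open triangle is the upper limit where the first library has 0 reads. B2M lies left of 1 in all 4 panels, HLA-E lies right of 1 in IL-8 at 3.81, and PDIA3 and CALR lie on opposite sides of 1 in RM.

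Counted at 1 log2 unit in log2(TPM + 1), with IL-6 the member TAPBP was above LD and 2 (HLA-E and TAP2) were below, where 9.84% of all compared genes were above and 7.47% below. With IL-8, HLA-E was above and 4 members (HLA-C, B2M, TAP2 and TAPBP) were below, where 7.99% of genes were above and 16.4% below. RM had 1 member above LD, HLA-B on 1 read, and 3 below (HLA-E, TAP1 and PDIA3), where 6.44% of genes were above and 20.4% below. HD had 1 above, again HLA-B on 1 read (below LD by quantile normalization), and 5 below (HLA-C, HLA-E, B2M, PDIA3 and CALR, the last of which lay above LD when scaled to the mesenchymal markers), where 61.9% of genes were above and 17.9% below. Against IL-6, RM had 1 member above and 4 below, where 6.34% and 22.7% of genes were. Against IL-8, it had 2 above and 3 below, where 9.87% and 14.9% of genes were.

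Among genes with at least 100 reads over the pair, a background closer to the abundant members, the share past that fold in either direction against LD was 11% with IL-6, 27.7% with IL-8 and 36.5% in RM. In HD it was 73.7%, with 52% lower. It was 35.1% for RM against IL-6 and 36.5% for RM against IL-8. The median difference of the 9 genes from LD was -0.35 with IL-6, -0.38 with IL-8, -0.66 in RM and -1.95 in HD, while these better counted genes had medians of -0.06, -0.29, -0.38 and -1.12. The split of the members depended on the scaling. By CPM of all reads it was 1 above and 0 below with IL-6 and 1 above and 2 below with IL-8. By median-ratio factors it was 2 above and 2 below in RM against LD, and 2 above and 0 below in RM against IL-6. By quantile normalization it was 0 above and 7 below in HD, and scaled to the mesenchymal markers it was 4 above and 4 below there.

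Intervals of the read ratio give a second count. With IL-6 they were clear of 1 for 4 of the 9 (TAPBP above LD, and B2M, CALR and PDIA3 below), where 11.4% of all compared genes were clear above and 9.42% below. With IL-8 they were clear for 5 (HLA-E above, and HLA-C, B2M, CALR and PDIA3 below), where 10.3% of genes were above and 17.1% below. In RM they were clear for 4 (CALR above, and HLA-E, B2M and PDIA3 below), where 9.26% of genes were above and 22.2% below. In HD they were clear for 6 (TAPBP above, and HLA-C, HLA-E, B2M, CALR and PDIA3 below), where 42.8% of genes were above and 19.9% below. A clear interval was more frequent among genes with at least 100 reads over the pair, at 23.8% above and 26.9% below with IL-6, 28.1% and 41.6% with IL-8, 28.1% and 47.1% in RM, and 19.9% and 70.4% in HD. So B2M, CALR and PDIA3, the members with the most reads, belong to a class of genes in which such a call was frequent. The small shifts of CALR and PDIA3 in IL-8 turned direction under median-ratio factors, and that of CALR also under TMM.

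The HD values depended most on what they were set against. Against reads outside RNA5-8S5, the 9 genes together gave 2104 CPM in LD and 305 in HD, while the mesenchymal list gave 9590 and 974. Set against the reads of the mesenchymal list of the same library, a denominator chosen once the values were known, the 9 genes gave 219 reads per 1000 mesenchymal reads in LD and 313 in HD. On that footing CALR in HD changed from 6.20-fold (5.11 to 7.61) below LD to 1.59-fold (1.27 to 1.98) above it. B2M stayed below, by 4.08-fold (1.57 to 15.1) in place of 40.2-fold, and PDIA3 by 2.62-fold (1.01 to 9.72) in place of 25.8-fold (10.0 to 95.3). The counts of 0 for HLA-C and HLA-E no longer set HD apart, with upper limits of 7.33 and 5.30 times LD, and TAPBP was 24.4-fold (12.8 to 45.7) above LD on 19 reads. For RM the same denominator kept HLA-E (5.39-fold, 1.66 to 27.8), PDIA3 (2.20-fold, 1.76 to 2.77) and B2M (1.16-fold, 1.01 to 1.34) below LD and CALR (2.14-fold, 2.01 to 2.27) above it. Leukocyte markers other than CD68 were also higher in HD while CD68 was lower, as given above, and their part in these values was not tested.

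The related gene lists place these members in the pathway. Their counts at 1 log2 unit stand beside shares over all compared genes of 6.44% above and 20.4% below LD in RM, and 61.9% above and 17.9% below in HD. Peptide supply holds the immunoproteasome subunits PSMB8, PSMB9 and PSMB10, the activator subunits PSME1, PSME2 and PSME3 and the peptidases that trim or destroy peptides. Of its 13 genes, RM had 1 above LD by 1 log2 unit and 4 below, and HD had 4 above and 5 below. PSMB8 had 1, 1, 4, 9 and 0 reads, in the order of the libraries above, and PSMB9 no more than 3 in any library. TPP2, a large cytosolic peptidase, had 107 reads in LD and 27 in RM (16.1 and 4.05 TPM), and NPEPPS, a cytosolic aminopeptidase, had 169 and 55 (36.6 and 12.8 TPM). PSME2 had 130 and 63. In HD, PSMB10 had 49 reads against 25 in LD (42.5 and 3.56 TPM), and the trimming peptidase ERAP1 28 against 25 (49.5 and 4.85 TPM). Of the 7 constitutive proteasome beta subunits, RM had PSMB5 above LD (396 against 178 TPM) and PSMB4 below (389 against 964 TPM), and HD had 0 above and 4 below. PSMB3, the best counted of them, stayed between 1141 and 1662 TPM in all 5 libraries, while PSMB7 was at 985 TPM in LD, 576 in RM and 78.5 in HD.

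Among 15 genes of folding and quality control in the endoplasmic reticulum, RM had 0 above and 5 (33.3%) below LD, with a list median of -0.47. HD had 1 above and 12 (80%) below, with a median of -2.81. Of the 15, 14 had at least 100 reads over the pair. Among all such genes, 25.1% were below LD in RM and 52% in HD, with medians of -0.38 and -1.12. CALR was above LD in RM while CANX, the membrane-bound partner of calreticulin, had 819 reads in LD and 370 in RM (119 and 54.9 TPM). The glucosidase subunit GANAB was at 183 TPM in LD and 75.2 in RM, and HSP90B1, the chaperone GRP94, at 667 and 329 TPM. BCAP31, an exit factor for class I molecules, stayed between 1033 and 1557 TPM at low density and was at 225 in HD. UGGT1, the sensor that returns unfolded glycoproteins to calreticulin, was the 1 gene of this list above LD in HD, at 39.3 against 4.99 TPM. HSPA5, the chaperone BiP and a standard readout of stress in this compartment, was at 200 TPM in LD, 185 with IL-6, 252 with IL-8, 196 in RM and 28.2 in HD. TAPBPL, a tapasin-related peptide editor named here after its values were seen, had 32, 16, 244, 13 and 0 reads, so IL-8 was its highest library as it was for HLA-E, while TAPBP was at its lowest there.

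Among 21 regulators of class I genes, RM had 0 above and 8 (38.1%) below LD, where 20.4% of all genes were below, and HD had 7 (33.3%) above and 8 (38.1%) below, where 61.9% and 17.9% of all genes were. NLRC5 had 17 reads in LD, 19 with IL-6, 16 with IL-8, 1 in RM and 14 in HD. RFXANK, a subunit of the RFX factor that binds class I and class II promoters, was at 292 TPM in LD, 252 with IL-6, 50.3 with IL-8, 34.0 in RM and 18.5 in HD, and CREB1 had 103 reads in LD and 29 in RM. The kinase TYK2 had 202 and 69. IRF1, the interferon-induced activator of class I genes, had 16, 28, 8, 13 and 73 reads, so HD was its highest library while HLA-C and HLA-E were at 0 there. STAT2 was at 6.52 TPM in LD and 72.1 in HD, and the receptor chain IFNAR2 at 11.9 and 51.7. Of 30 interferon response genes compared, RM had 3 above and 5 (16.7%) below LD, and HD had 17 (56.7%) above and 8 (26.7%) below, so the share above LD in HD was near the 61.9% of all genes. UBE2L6, an enzyme of ISG15 conjugation, was at 33.4 TPM in LD and 234 in RM, and XAF1 was at 4.80 TPM in LD and 277 in HD. IFITM3, the 1 gene of this list with at least 50 reads in every library, was at 714 TPM in LD, 1100 with IL-6, 608 with IL-8, 939 in RM and 367 in HD, and LY6E at 359 TPM in LD, 916 in RM and 7.85 in HD.

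**Figure D5:**
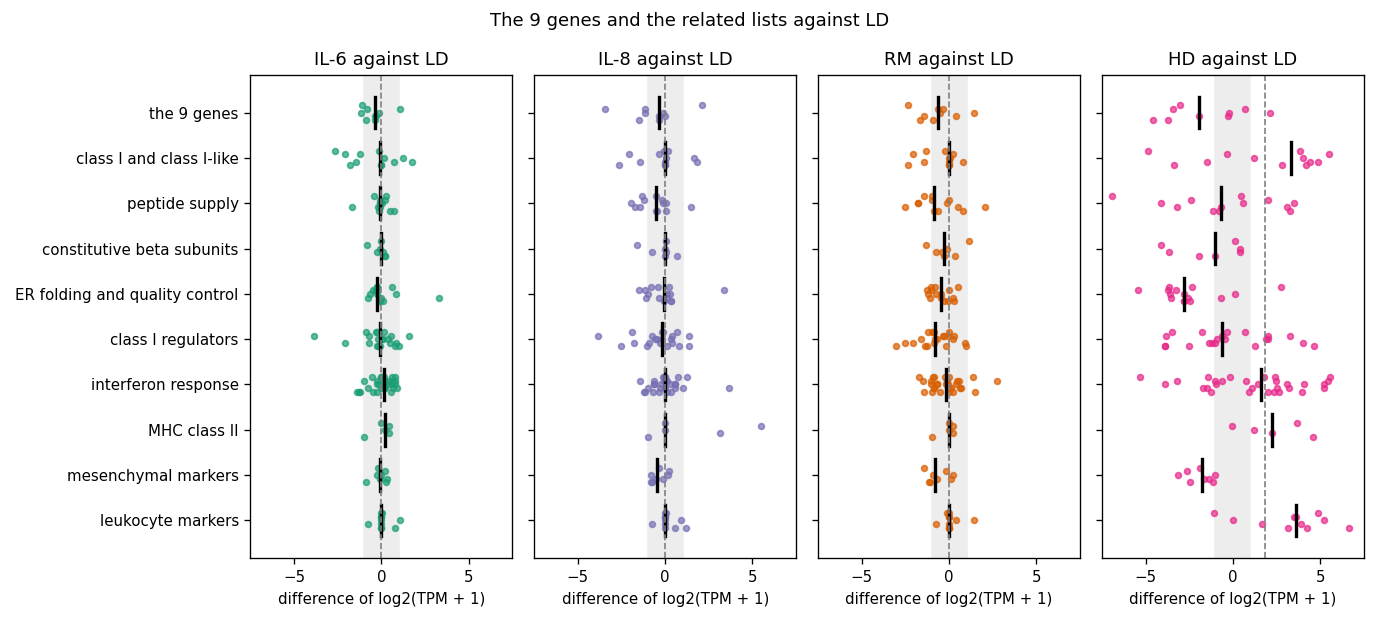
Difference of log2(TPM + 1) from LD in the 4 other libraries (1 panel each) for the 9 genes and the 9 related lists, with 1 point per compared gene. Black bars are list medians, the dashed line is the median of all compared genes and the grey band marks differences within 1 log2 unit. In HD the 9 genes have a median of -1.95 and the folding list of -2.81, while the median of all compared genes is 1.86. Among genes with at least 100 reads over the pair, not drawn, it is -1.12.

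Class I-like molecules and class II genes were scarce at low density. Of 12 class I and class I-like genes compared, RM had 0 above and 4 (33.3%) below LD, where 20.4% of all genes were below. HD had 8 (66.7%) above and 3 below, a share above near the 61.9% of all genes. ULBP2, a ligand of the natural killer receptor NKG2D, had 87 reads in LD, 16 with IL-6, 9 with IL-8, 15 in RM and 1 in HD. Class II genes had 4, 3, 44, 2 and 32 reads in all. In IL-8 these were HLA-DPB1 with 35 reads and HLA-DMA with 9, and in HD mainly HLA-DQA1 with 15 and CD74 with 14, so the leading class II genes of the 2 libraries differed.

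The genes whose 4 differences from LD lay nearest to those of a member were searched among 462 genes with at least 50 reads in every library. For CALR these were the actin-binding genes CNN2 and TPM2 and the ribosomal protein gene RPS3, at distances of 0.39, 0.47 and 0.47 log2 units, against a median of 2.43 over the genes searched. For B2M they were HSP90AB1, RPL5 and SQSTM1 at 1.43, 1.61 and 1.71 log2 units, against a median of 4.95. For HLA-B they were HNRNPUL2-BSCL2, EP400 and PML at 0.53, 0.75 and 0.86 log2 units, which rest on at most 1 HLA-B read in any library. These distances describe 5 libraries without replicates.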

How the data were processed

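RNA from HT1080 cells in collagen gels was sequenced in 1 library per condition, with groups taken from the labels. Transcripts were primed at the poly-A tail, the cDNA pool was amplified with phi29 polymerase and libraries were made with Nextera XT, so the counts carry amplification error and no strand. The authors mapped 50 base reads by Bowtie2, with gene levels from RSEM. The submitters' processing notes list Bowtie2 2.3.1, RSEM 1.2.25, CASAVA 1.4 and the builds GRCh37 and hg19. The authors deposited for each gene an estimated count from RSEM, in whole numbers, and a TPM value. RSEM divides reads among genes that share sequence.

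TPM was rescaled to a total of 1000000 per library, and log2(TPM + 1) was compared over genes reaching 1 TPM in any library. Differences of 1 log2 unit or more were counted. CPM values (reads outside RNA5-8S5) carry exact Clopper-Pearson 95% intervals, and ratios carry exact conditional ones. The floor is 3 reads. The members and all lists were chosen with earlier results of these data known. The genes named from each list were those with at least 50 reads in every library (up to 4) and those with the largest difference in RM or HD with at least 10 reads in both libraries (up to 3). Others were named for their role or after their values were seen. Alternatives were pseudocounts of 0.1 and 5 TPM, CPM on the counts, median-ratio factors, TMM from edgeR 4.0.16, quantile normalization, thresholds of 1.5-fold and 2 log2 units and filters on low values. Backgrounds of at least 100 reads, the leukocyte sum without CD68 and the mesenchymal denominator were added after the data were seen. The scripts were tested on simulated data. Promoters came from RefSeq (GRCh38.p14) and shared stretches from GENCODE 29 transcripts. Whether the reference the authors mapped to holds the same genes was not checked. Software was R 4.3.3 and Python 3.11.15 with scipy 1.17.1, numpy 2.4.6 and pandas 2.3.3. A cell-free collagen control was not analysed here.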

Additional observations from a re-analysis of the deposited data

How the results depend on the processing

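No paired analysis was possible because each condition has 1 library, and no library could be left out. Depth limits HLA-B, TAP1 and TAP2, with at most 8 reads each, and HD, with 137 reads over the 9 genes. Of the 54 member differences, 46 kept their sign under the 7 scalings and pseudocounts. The pseudocounts could not turn a sign, because they keep the order of the same TPM values. Some differences of HLA-B, HLA-C, HLA-E and TAP2 had 0 reads in 1 library, and no scaling factor could turn those. The 46 therefore include signs fixed in advance. Among differences with reads in both libraries, B2M stayed below LD in all 4 libraries. HLA-E stayed above LD in IL-8 (1.52 to 2.54 log2 units). CALR stayed above LD in RM (0.33 to 1.14) and PDIA3 below LD in RM (-1.75 to -0.96). HLA-B in HD reversed under quantile normalization (-0.18 against 2.11), and CALR in HD reversed when scaled to the mesenchymal list (0.67 against -1.95). Members past 1 log2 unit against LD went in IL-6 from 3 to 0 (pseudocount of 5 TPM), 1 (CPM of all reads), 0 (2 log2 units) and 5 (1.5-fold), in IL-8 from 5 to 3, 3 and 2 under the first 3 of these and to 3 with the mesenchymal scaling, and in RM from 4 to 2, 2 and 1. In HD they stayed between 5 and 8 of a main count of 6. Against IL-6, RM went from 5 to 2 (pseudocount of 5 TPM), 2 (CPM of all reads), 2 (median-ratio factors) and 0 (2 log2 units), and against IL-8 from 5 to 3, 3, 2 (2 log2 units) and 9 (1.5-fold). The median of all genes in HD, 1.86, shifted by -0.18 to -1.55 under the planned scalings and by 2.65 with the mesenchymal one. The cause of these shifts was not tested.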

Other observations

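The NKG2D ligands and other class I-like molecules did not share one order. ULBP3 had 4 reads in LD, 9 with IL-6, 11 with IL-8, 8 in RM and 28 in HD, or 1.75, 8.26, 8.77, 3.84 and 78.4 TPM, while ULBP2 was highest in LD. MR1, which presents microbial vitamin metabolites, had 8, 0, 3, 8 and 88 reads, and CD1D, which presents lipids, had 0, 2, 0, 0 and 16. HLA-B, HLA-C and HLA-E together had 1 read in HD, so MR1 was the class I-like gene with the most reads in that library.

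IFI27, an interferon-induced gene, had 10 reads in LD, 11 with IL-6, 90 with IL-8, 11 in RM and 1 in HD, and its highest library was that of HLA-E, TAPBPL and HLA-DPB1. IRF1 had 8 reads there against 16 in LD. MOGS, the glucosidase that first trims new glycans, had 108, 729, 83, 73 and 9 reads, so IL-6 held its highest value as it did for TAPBP. These genes were picked after their values were seen and each rests on 1 library per condition.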
